A study of Mus musculus with 2 samples.

Results

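Myosin heavy chains are the motor proteins of the thick filament. The heart uses the alpha chain, encoded by Myh6, which hydrolyses ATP fast, and the beta chain, encoded by Myh7, which is slower and more economical. In rodents the beta chain predominates in the fetal ventricle and the alpha chain in the adult ventricle, and renewed Myh7 expression is a widely used sign of a stressed myocardium. Myh3 and Myh8 encode the embryonic and perinatal chains of developing skeletal muscle, Myh7b is an ancient sarcomeric relative of both cardiac genes, and Myh9, Myh10 and Myh14 encode the non-muscle chains IIA, IIB and IIC that form contractile bundles in the cytoplasm of many cell types.

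These 8 genes were taken by their symbols from the 19465 genes of the deposited tables, and all 8 were found. The data are 2 Visium CytAssist libraries, in which probe pairs hybridized to formalin-fixed, paraffin-embedded heart tissue are captured on barcoded spots and counted by unique molecular identifiers (UMIs). The control section came from an α-MHC-MerCreMer+/− mouse and the transgenic section from an α-MHC-MerCreMer+/− mouse that also carried the TOP2B LSL/− allele, a human TOP2B cDNA behind a CAG promoter and a loxP-flanked stop cassette. Both animals received a single 80 mg/kg dose of tamoxifen, in an acute model that treats mice at 6 weeks of age, and hearts were cut at 5 μm. The recombinase in both groups is driven by the α-MHC promoter, which is the promoter of Myh6 itself, so the cells that recombine are those that use one of the genes studied here. The day on which these hearts were collected is not given in the sources used here.

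The control section had 1256 spots and 14376300 UMIs and the transgenic section 924 spots and 12953389 UMIs, with medians of 11336 and 14531 UMIs per spot. There was 1 section per genotype, so no test was run, no p value was computed, and every interval below is a 95% interval that covers counting error only (an exact Poisson interval for a sum of UMIs, an exact conditional binomial one for a log2 ratio and a Clopper-Pearson one for a share). Values are given as CPM, the UMIs of a gene per 1000000 UMIs of its section. Over the 15236 genes with at least 20 UMIs in both sections together, the median log2 ratio of transgenic over control CPM was 0.20, and 63.2% of genes lay above 0. The mouse Top2b probe stood at 106 CPM in the control against 102 CPM in the transgenic section (log2 ratio −0.07, −0.17 to 0.04), which does not check the label, since the transgene is human. Of 6 erythroid marker genes 5 were analysed, since a listed gene was used only where its symbol matched exactly 1 gene. Their summed level was 2146 CPM in the control against 20419.6 CPM in the transgenic section. In the transgenic section 39 spots, against 10 control spots, held fewer than 20 Myh6 and Myh7 UMIs together, and these 39 spots carried 43.8% of all erythroid marker UMIs. All 10 cardiomyocyte markers, none of them a myosin heavy chain, were counted in both sections, and their summed level was 46272 CPM in the control against 34022 CPM in the transgenic section. The sections shared 725 spot barcodes, which are positions of the same array design and not shared cells. In tissue sections, fewer cells of a type and less RNA per cell cannot be told apart.

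Myh6 and Myh7 lie on the same strand of chromosome 14, and the regions around their annotated starts are shown because one gene was lower and the other higher in the transgenic section. The letters are RefSeq sequence of GRCm38.p6, from 250 bases before the start to 20 bases after it, read along the gene. Capitals mark matches to motifs searched on both strands. In both genes one is the reverse complement of CATTCC, the MCAT element that TEAD factors bind. In Myh6 the other is TATAAA, the letters of the TATA box, which begin 1 base after the annotated start and not upstream of it.
Myh6, chr14:54966588-54966857, minus strand: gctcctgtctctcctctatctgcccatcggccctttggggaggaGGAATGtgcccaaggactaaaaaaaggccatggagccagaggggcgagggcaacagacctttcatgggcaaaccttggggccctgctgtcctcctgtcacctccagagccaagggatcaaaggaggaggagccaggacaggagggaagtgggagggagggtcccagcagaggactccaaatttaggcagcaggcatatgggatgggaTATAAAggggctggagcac
Myh7, chr14:54994607-54994876, minus strand: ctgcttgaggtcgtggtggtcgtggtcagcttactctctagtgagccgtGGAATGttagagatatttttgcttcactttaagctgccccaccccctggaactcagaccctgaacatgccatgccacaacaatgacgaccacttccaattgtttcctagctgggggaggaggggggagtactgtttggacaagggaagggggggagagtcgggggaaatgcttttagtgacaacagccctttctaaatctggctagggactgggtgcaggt

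Both cardiac genes carried the MCAT letters, 206 bases before the Myh6 start and 201 bases before the first of 2 annotated Myh7 starts. The window of the second Myh7 start held none of the 4 motifs searched. It begins downstream of the MCAT letters of the first, so their absence depends on where the window was cut. Among all 32851 promoter windows of the same 300 bases, 14.7% held CATTCC, 13.6% TATAAA, 16.3% the nuclear receptor half-site AGGTCA and 7.15% the E-box CACGTG. Of the other members, Myh10 also held CATTCC, Myh3, Myh8 and Myh9 held TATAAA, Myh7b held AGGTCA and CACGTG, and Myh14 held none. Such matches describe letters and not binding.

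Each of Myh6, Myh7 and Myh7b hosts a microRNA on its own strand, and these are shown because the host genes differed between the sections. The mature sequences are RefSeq entries with the seed, bases 2 to 8, in capitals.
mmu-miR-208a-3p, within Myh6: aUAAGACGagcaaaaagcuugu
mmu-miR-208b-3p, within Myh7: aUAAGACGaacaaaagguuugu
mmu-miR-499-5p, within Myh7b: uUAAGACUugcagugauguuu

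The microRNAs of Myh6 and Myh7 share the seed UAAGACG and 19 of 22 bases, and the Myh7b microRNA differs from them in the last base of the seed. Their own levels were not measured by these probes.

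Myh6, the alpha chain, was counted with 265534 UMIs in the control section against 74280 in the transgenic section. This is 18470.3 CPM (18400.1 to 18541) against 5734 CPM (5693 to 5776), a 3.22-fold lower level (log2 ratio −1.69, −1.70 to −1.68). Myh7, the beta chain, was counted with 483 UMIs in the control section against 101646 in the transgenic section. Its level was 33.6 CPM (30.7 to 36.7) in the control against 7847 CPM (7799 to 7895) in the transgenic section, which is 234-fold higher (log2 ratio 7.87, 7.74 to 8.0). Between quadrants, the 4 parts of a section split at the centre of its tissue, Myh6 spanned 17797 to 18989.8 CPM in the control and 4574 to 6910 CPM in the transgenic section. For Myh7 the quadrants spanned 26.1 to 41.6 CPM and 6127 to 9798 CPM. For both genes every quadrant of one section lay apart from every quadrant of the other. That is only a description, since the same share over all genes was not computed. UMIs of both genes were counted in every one of the 885 transgenic spots that held at least 20 of them.

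Across the whole set, 3 of the 7 members with at least 20 UMIs, Myh7, Myh8 and Myh10, were higher in the transgenic section by 2-fold or more, as were 13.7% of all 15236 genes. Myh8, with 0 control UMIs, reached the minimum only through the transgenic section, so its call was fixed once it passed. Only Myh6 of the 7 was at least 2-fold lower, where 5.61% of all genes were.

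**Figure D1:**
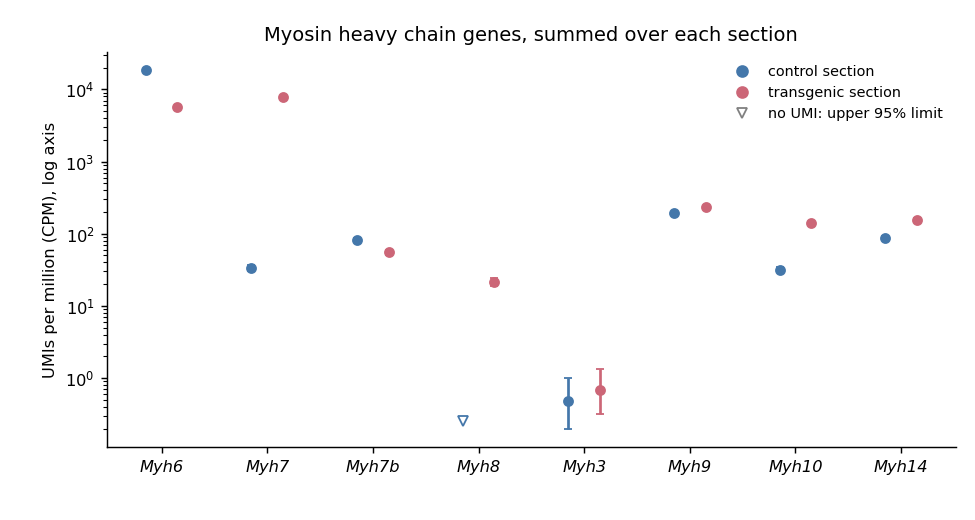
Level of each of the 8 myosin heavy chain genes in CPM (log axis), summed over the control section (blue) and the transgenic section (red), with exact Poisson 95% intervals that cover counting error only; the open triangle is the upper limit for a gene with no UMI. Myh7 stands at 33.6 CPM in the control against 7847 CPM in the transgenic section, and Myh8 has no control UMI.

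Myh8, the perinatal chain, had no UMI in the control section, where 3 counts would equal 0.209 CPM, and 279 UMIs or 21.5 CPM (19.1 to 24.2) in the transgenic section. Against that floor of 3 control counts it was 103-fold higher (log2 ratio 6.69). The interval of the log2 ratio had a lower limit of 6.38 and no upper limit. All 4 transgenic quadrants held it, at 16.1 to 25.8 CPM. Its UMIs were spread thin: 201 of the 924 transgenic spots held 1 UMI, 33 held 2 and 4 held 3 or more. The 0 of 1256 control spots allow a share of up to 0.239% of spots if 3 counts are taken as the limit, and the Clopper-Pearson interval reaches 0.293%. Myh3, the embryonic chain, was counted 7 times in the control and 9 times in the transgenic section, 0.487 and 0.695 CPM, so no difference was detectable at this depth (log2 ratio 0.51, −1.08 to 2.17). The adult fast skeletal chains Myh1, Myh2 and Myh4, which were not among the 8, had at most 6 UMIs in either section. Summed over the 11 of 12 skeletal muscle markers analysed, however, the level was 25.4 CPM in the control against 272 CPM in the transgenic section. Of these, Mybpc2 alone gave 14.7 and 227 CPM. The largest log2 ratio among them was 4.57, of Tnnt3, a fast skeletal troponin T. Of the 7 markers with at least 20 UMIs, 4 were at least 2-fold higher, where 13.7% of all genes were. Among these 4, Tnnt3 (18 control UMIs) and Actn3 (16 control UMIs) reached the minimum only with their transgenic counts. In the other direction 2 were lower, Myog (log2 ratio −0.85, −1.98 to 0.21) and Tnnc2 (−0.41, −1.39 to 0.54). Myod1 was not analysed here, and the part of these genes in the Myh8 counts was not tested. Within the transgenic section, the 238 spots with a Myh8 UMI had 271 CPM of these markers and the other 685 spots with UMIs had 272 CPM. Erythroid markers stood at 9948 CPM and 24471 CPM in the same spots. Since Mybpc2 gave most of the sum in this section, the near equality says little about the other skeletal markers.

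Myh7b had 1166 UMIs in the control against 712 in the transgenic section. Its level was 81.1 CPM (76.5 to 85.9) against 55.0 CPM (51.0 to 59.2), a log2 ratio of −0.56 (−0.70 to −0.43). Its relative Myh7 was 234-fold higher. The median log2 ratio of the 10 cardiomyocyte markers was −0.55, and that of Myh7b lay close to it. Those markers ran from −1.92 for Tnni3 to 0.17 for Tnnt2, so closeness to their median says little. Relative to the median of all genes the log2 ratio of Myh7b was −0.76. For Myh7b the control quadrants spanned 73.7 to 95.2 CPM and the transgenic ones 46.2 to 64.8 CPM.

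The 3 non-muscle chains all lay higher in the transgenic section, by unequal amounts. Myh10, non-muscle IIB, was counted 459 and 1802 times, 31.9 CPM (29.1 to 35.0) in the control against 139 CPM (133 to 146) in the transgenic section, a 4.36-fold difference (log2 ratio 2.12, 1.97 to 2.27). Myh14, non-muscle IIC, was counted 1254 and 2021 times, 87.2 CPM (82.5 to 92.2) and 156 CPM (149 to 163), a log2 ratio of 0.84 (0.74 to 0.94). Myh9, non-muscle IIA, was counted 2743 and 3070 times, 191 CPM (184 to 198) and 237 CPM (229 to 246), a log2 ratio of 0.31 (0.24 to 0.39). The Myh9 difference is 0.11 above the median of all genes, whereas Myh14 is 0.64 and Myh10 is 1.92 above it. In each of the 3 genes the quadrants of both sections did not overlap, which is only a description, since the same share over all genes was not computed. The narrowest gap was that of Myh9, whose highest control quadrant had 203 CPM and lowest transgenic quadrant 208 CPM.

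The composition of the family's UMIs is a count of probe products, and since probes differ between genes its shares are not shares of molecules. Myh6 and Myh7 have closely similar coding sequences, and how far a probe for either binds the other's transcript is not stated. Of the 271646 UMIs of the 8 genes in the control section, 97.8% (97.7 to 97.8) were Myh6, 1.01% Myh9, 0.462% Myh14, 0.429% Myh7b, 0.178% Myh7 and 0.169% Myh10. Of the 183819 UMIs in the transgenic section, 55.3% (55.1 to 55.5) were Myh7, 40.4% (40.2 to 40.6) Myh6, 1.67% Myh9, 1.10% Myh14, 0.980% Myh10, 0.387% Myh7b and 0.152% Myh8. Set apart from the 2 large genes, the other 6 members also differed in their shares. Myh7b went from 20.7% to 9.02% of their UMIs, Myh9 from 48.7% to 38.9%, Myh10 from 8.15% to 22.8% and Myh14 from 22.3% to 25.6%, with 3.53% for Myh8 in the transgenic section.

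**Figure D2:**
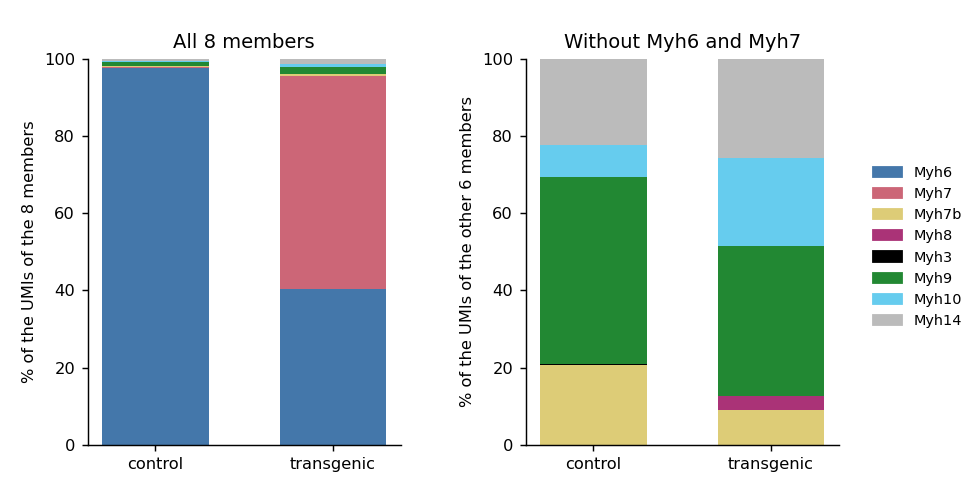
Stacked bars of the share of UMIs of each gene in the control and transgenic sections, on the left among all 8 myosin heavy chain genes and on the right among the 6 genes other than Myh6 and Myh7 (percent of UMIs). The left bars show Myh6 at 97.8% in the control against 40.4% in the transgenic section, and the right bars show Myh10 at 8.15% and 22.8%.

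The Myh7 share of the Myh6 and Myh7 UMIs was 0.182% in the control section against 57.8% (57.5 to 58.0) in the transgenic section. Together both genes had 18504 CPM in the control against 13581 CPM in the transgenic section. Set against the summed cardiomyocyte markers, that is 40.0 UMIs per 100 marker UMIs in the control (39.1 to 40.6 over quadrants) and 39.9 in the transgenic section (34.4 to 46.6 over quadrants). Of these, Myh6 gave 39.9 in the control against 16.9 in the transgenic section, and Myh7 gave 0.0726 and 23.1. The near equality of the sum depended on the markers as a list: against single markers the ratio of transgenic over control ran from 0.653 for Tnnt2, cardiac troponin T, to 2.78 for Tnni3, cardiac troponin I, with 6 of 10 markers above 1.

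Spot by spot, UMIs of both genes were found together across the transgenic section. A spot can cover several cells, so cells with both chains cannot be told apart from neighbouring cells with either chain. Among the 885 transgenic spots with at least 20 UMIs of both genes the Myh7 share ran from 22.7% to 82.9%, with a median of 57.8%, and 630 spots (71.2%) lay above 50%. Among 1246 control spots the median was 0 and the highest share 8.12%. The ranges of these spots did not overlap between the sections. From the tissue edge inward, the transgenic share was 61.4% in the outermost layer of spots, 58.8%, 55.9% and 53.8% in the next 3 layers and 48.8% in the 29 deepest spots, where an edge spot has a neighbouring array position not over tissue, inner cavities included. Over the same layers the erythroid markers went from 32908 to 6157 CPM and the fibroblast markers from 6795 to 4182 CPM, and their part in the gradient was not tested. By quadrants the transgenic share ranged from 50.4% to 64.7%.

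**Figure D3:**
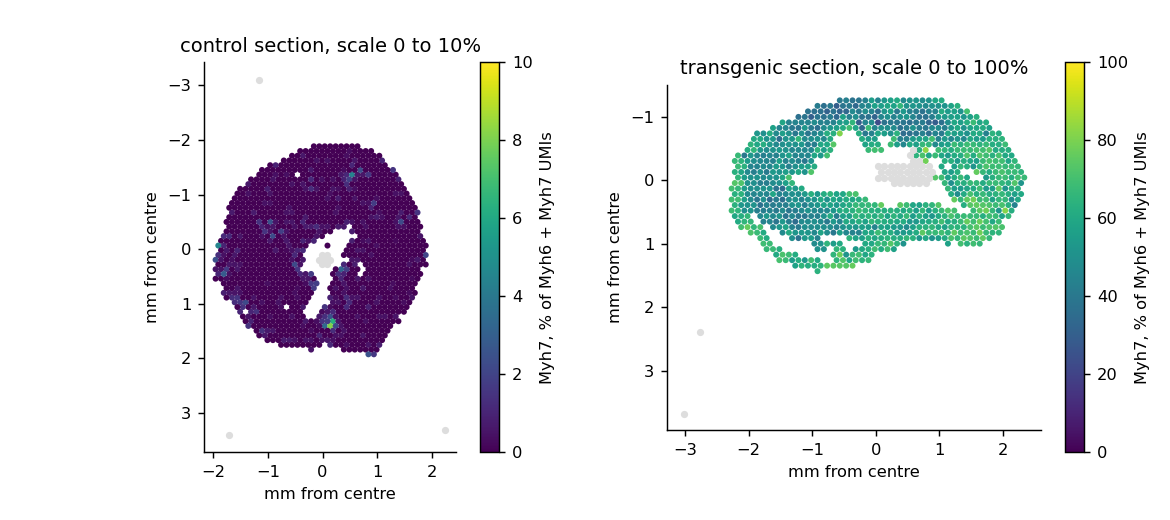
Spots of both sections at their position in mm from the centre, coloured by the share of Myh7 in the Myh6 and Myh7 UMIs of the spot (0 to 10% in the control panel, 0 to 100% in the transgenic panel); grey spots had fewer than 20 such UMIs. Control spots reach 8.12% at most in a few small patches, and transgenic spots run from 22.7% to 82.9%.

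Moran's I, a deposited score that is near 0 for a gene without spatial order and approaches 1 where neighbouring spots are alike, was 0.057 for Myh6 in the control against 0.665 in the transgenic section. For Myh7 it was 0.189 and 0.639. Among the genes with at least 200 UMIs in a section, Myh6 ranked 212th of 7221 in the control and 20th of 7590 in the transgenic section, and Myh7 26th and 38th. The score of the non-muscle genes was 0.002 and 0.160 for Myh9, 0.011 and 0.123 for Myh10 and 0.035 and 0.129 for Myh14, and 0.056 for Myh8 in the transgenic section. For Myh7b it stayed at 0.018 and 0.034 and for Myh3 at −0.006 and −0.009. The median over those genes was 0.004 in the control against 0.035 in the transgenic section, so scores were higher in the transgenic section in general. The scores also take in the blood-rich spots with fewer than 20 Myh6 and Myh7 UMIs, 39 in the transgenic and 10 in the control section. Those 39 spots held 59 Myh6 and 102 Myh7 UMIs in all, and their part in the scores was not tested.

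The few control Myh7 UMIs were not spread evenly. Of 1256 control spots 287 held Myh7, and the 43 spots with 3 or more UMIs held 40.2% of the 483. Myh7 reached 364 CPM in those 43 spots, which is only a description, since they were chosen by their Myh7 count. Nppa, the atrial natriuretic peptide gene that is a second fetal and stress marker, had 1789 CPM there against 174 CPM in the 969 spots without Myh7. Fibroblast markers were at 1943 and 1316 CPM in the same 2 sets, the smooth muscle and pericyte markers at 1343 and 824 CPM, and the 6 atrial markers at 48.8 and 50.7 CPM. Edge spots of the control section had 49.6 CPM of Myh7 (40.4 to 60.4) and interior spots 31.0 CPM (28.0 to 34.2).

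The share of spots with a UMI followed the levels. Myh6 was found in 99.8% of control and 98.7% of transgenic spots, Myh7 in 22.9% and 99.2%, and Myh7b in 59.2% and 50.1%. For Myh9 the shares were 85.2% and 91.7%, for Myh10 30.3% and 80.7%, for Myh14 61.5% and 81.8%, and for Myh8 0 and 25.8%. Depth differed between the sections, so spots were also thinned to 8134 UMIs each, which left out 140 control and 78 transgenic spots. Thinned, Myh7b was found in 49.9% of control and 36.8% of transgenic spots, Myh9 in 77.7% and 84.6%, Myh10 in 21.4% and 66.2% and Myh14 in 51.3% and 73.2%. Thinning took Myh8 from 25.8% to 16.8% of transgenic spots.

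To relate the other members to the Myh6 and Myh7 balance, the 885 transgenic spots were ordered by Myh7 share and cut into 5 groups of 177 spots. The order itself was made from Myh6 and Myh7, whose values are therefore only a description: Myh6 went from 6395 CPM in the lowest group to 4791 CPM in the highest, and Myh7 from 4525 to 11302 CPM. Of the 6 other members, only Myh7b differed between the end groups by more than counting error. This is only a description, since the share of all genes that did so was not computed. The Myh7b level was 46.7, 53.2, 55.7, 51.8 and 71.0 CPM from the lowest to the highest group (log2 ratio of the end groups 0.61, 0.27 to 0.95). The Myh7b difference was thus borne by the highest group, and it was 0.28 (−0.12 to 0.69) in spots away from the tissue edge and 0.37 (−0.10 to 0.84) in the 50% of spots poorest in erythroid markers, a subset chosen after seeing the data. Edge spots made up 15.8% of the lowest and 45.8% of the highest group, and erythroid markers stood at 8236 and 16675 CPM in them.

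Myh8 did not differ between the end groups by more than counting error, with 24.4, 19.6, 27.0, 17.7 and 19.7 CPM over the 5 groups (log2 ratio of the end groups −0.31, −0.88 to 0.24). Cut into 4 groups, the Myh8 log2 ratio was −0.57 (−1.11 to −0.05), and in spots away from the edge −0.68 (−1.38 to −0.01). Spots with a Myh8 UMI had a Myh7 share of 56.7% and spots without it 58.2%. Myh10 was at 150 CPM in the lowest and 132 CPM in the highest group (−0.19, −0.40 to 0.03), Myh14 at 150 and 162 CPM (0.11, −0.09 to 0.31) and Myh9 at 240 and 251 CPM (0.07, −0.10 to 0.23). Pearson's r between the level of a gene and the Myh7 share over the 885 spots, which share 1 library and a low count per spot, was between −0.08 and 0.09 for each of these 6 genes. Values of that size in sparse counts are no finding.

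**Figure D4:**
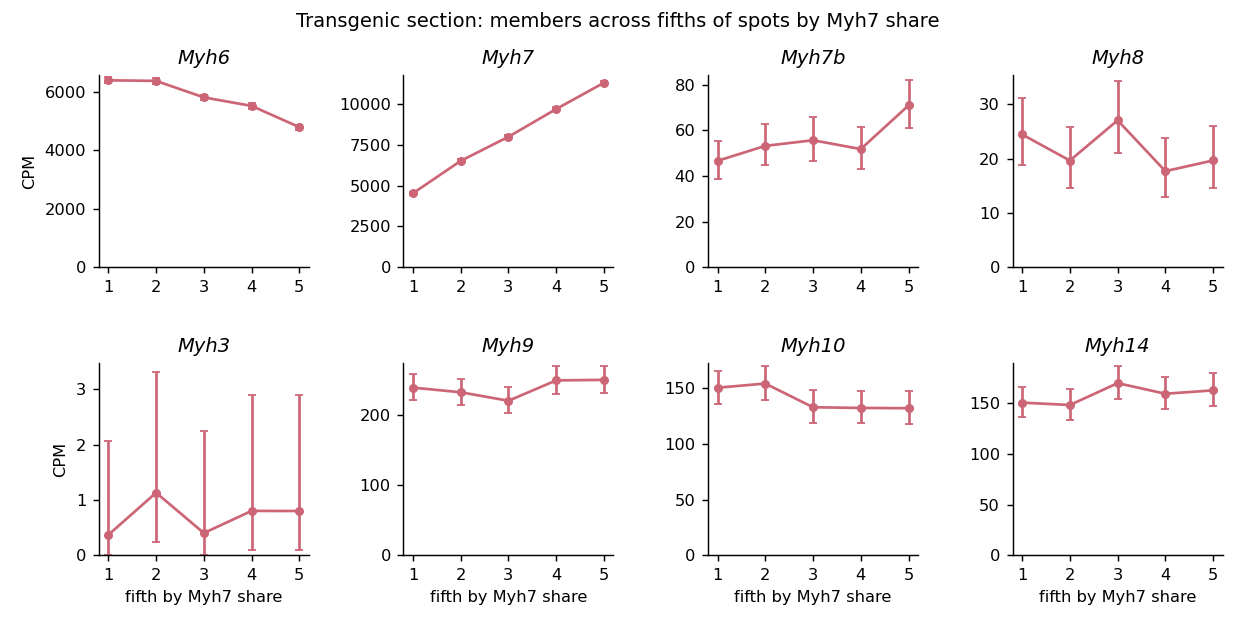
Level of each myosin heavy chain gene (CPM, axes from 0) in 5 groups of 177 transgenic spots, ordered from the lowest (1) to the highest (5) Myh7 share, with exact Poisson 95% intervals for counting error. Myh6 and Myh7 made the order. Of the other genes Myh7b ends highest, at 71.0 CPM, and the intervals of Myh8, Myh9, Myh10 and Myh14 overlap between the end groups.

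Since Myh7 made the order of these groups, the levels of both cardiac chains against cardiomyocyte markers are also only a description. Their total was 31.2 UMIs per 100 cardiomyocyte marker UMIs in the lowest group and 51.3 in the highest, with Myh6 at 18.3 and 15.3 and Myh7 at 12.9 and 36.0. Over the 885 transgenic spots, on a log2 scale of UMIs per 10000 plus 1, the levels of Myh6 and Myh7 had an r of 0.35 with each other. Both also followed the mix of tissue, with r of 0.77 for Myh6 and 0.34 for Myh7 against cardiomyocyte markers and −0.60 and −0.20 against fibroblast markers, and its part in their relation was not tested.

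The non-muscle genes were also set against the markers of other cell types. Spots with at least 1000 UMIs were ordered by their share of fibroblast marker UMIs and cut into 5 groups per section. Myh9 went from 160 CPM (144 to 178) in the transgenic spots poorest in fibroblast markers to 292 CPM (273 to 313) in the richest. In the control it went from 181 to 213 CPM. Myh10 was at 135 CPM in the poorest and 134 CPM in the richest transgenic group, with 130 to 162 CPM over all 5, and went from 25.6 to 40.8 CPM in the control. Myh14 was at 116 and 160 CPM in the transgenic and 81.8 and 96.4 CPM in the control groups. The groups of both sections are not matched in fibroblast markers, which stood at 1711 CPM in the poorest transgenic group, 645 CPM in the poorest control group and 1625 CPM in the fourth control group. In that poorest transgenic group Myh10 was above every control group. Myh9 there overlapped the poorest control group (166 to 197) but lay below the fourth, which had 196 CPM (181 to 213). The fibroblast order was not alone in this: from the poorest to the richest transgenic group, Myh9 went from 181 to 276 CPM by macrophage markers, from 206 to 275 CPM by smooth muscle and pericyte markers and from 207 to 264 CPM by endothelial markers. Ordered by cardiomyocyte markers instead, Myh10 went from 112 CPM (98.6 to 126) in the poorest to 162 CPM (147 to 179) in the richest transgenic group. Over the same transgenic groups Myh9 went from 273 to 182 CPM and Myh14 from 160 to 140 CPM. In the control Myh10 was at 32.5 CPM in the poorest and 32.4 CPM in the richest group. The cell source of Myh10 was not tested. The summed fibroblast markers were at 1387 CPM in the control against 6087 CPM in the transgenic section, with 7 of 8 at least 2-fold higher. Macrophage markers were at 221 and 439 CPM and endothelial markers at 793 and 714 CPM.

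**Figure D5:**
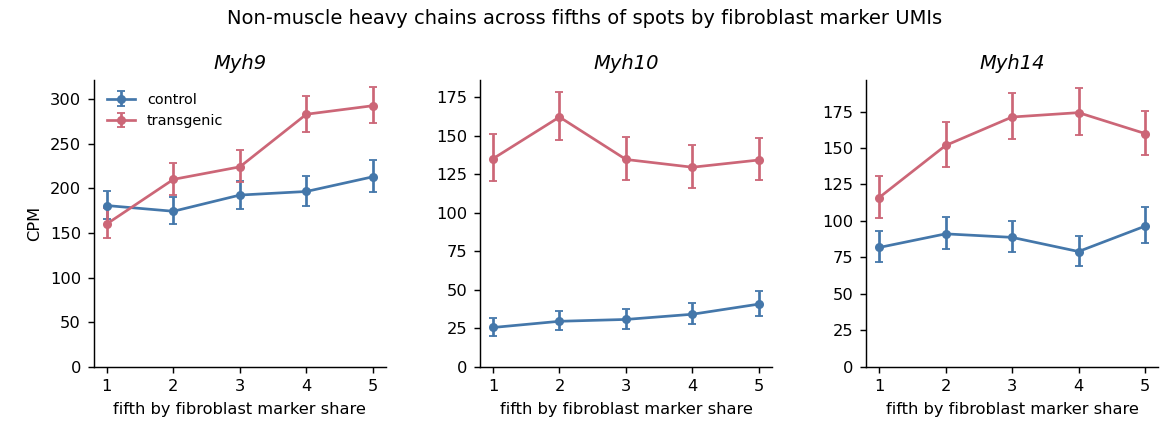
Level of the non-muscle chains Myh9, Myh10 and Myh14 (CPM, axes from 0) in 5 groups of spots per section, ordered from the lowest (1) to the highest (5) share of fibroblast marker UMIs, control in blue and transgenic in red, with exact Poisson 95% intervals for counting error. Transgenic Myh9 runs from 160 to 292 CPM, while transgenic Myh10 lies between 130 and 162 CPM, above all control groups.

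Genes that work with the heavy chains were taken as 3 lists. Of 6 other heavy chain genes 4 were analysed. Myh11, the smooth muscle chain, was the only one with at least 20 UMIs, at 33.8 and 22.2 CPM (log2 ratio −0.61, −0.83 to −0.40). Of 15 thick filament partners and chaperones 13 had at least 20 UMIs, 3 of them at least 2-fold higher and 1 at least 2-fold lower, where all genes had 13.7% and 5.61%, with a median log2 ratio of 0.03 against 0.20 over all genes. Of the 3 higher genes Myom3, with 12 control UMIs, reached the minimum only with its transgenic count. The highest of this list was Mybpc2, the fast skeletal myosin binding protein C, at 14.7 and 227 CPM (log2 ratio 3.94, 3.74 to 4.15). The lowest was Smyd1, a muscle methyltransferase that takes part in thick filament assembly, at 868 and 326 CPM (log2 ratio −1.41, −1.46 to −1.36). All 20 factors known to act on the cardiac heavy chain promoters had at least 20 UMIs, with none at least 2-fold higher and 2 at least 2-fold lower, beside the same 13.7% and 5.61% over all genes, and a median of 0.08. Thrb, the thyroid hormone receptor beta, was the lowest at 20.6 and 8.26 CPM (log2 ratio −1.32, −1.65 to −0.99). Thra, the thyroid hormone receptor alpha of the same list, went the other way, at 95.6 and 143 CPM (log2 ratio 0.58, 0.48 to 0.68). Tead3, a TEAD factor that binds MCAT elements, was the highest at 5.98 and 11.1 CPM (log2 ratio 0.89, 0.50 to 1.30).

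The genes whose level over spots was most like that of each cardiac chain were ranked by Pearson's r on the log2 scale, over spots that share 1 library and its mix of tissue. In the transgenic section (923 spots, 2333 genes), Ankrd1 (r = 0.78), Tnnt2 (0.76), Myom2 (0.73), Pln (0.72) and Mybpc3 (0.72) were closest to Myh7. Tnnt2 (0.88), Myl2 (0.88), Atp2a2 (0.86), Atp5a1 (0.86) and Slc25a4 (0.85) were closest to Myh6. Ankrd1, a stretch-responsive cardiac ankyrin repeat gene, was thus first for Myh7 and not among the first 5 for Myh6. The fifth gene for Myh6 had a higher r than Ankrd1 had with Myh7. The 2 lists therefore do not show whether Ankrd1 was closer to Myh7 than to Myh6. In the control section (1256 spots, 2274 genes), Tnnt2 (0.70), Atp2a2 (0.69), Myl2 (0.64), Cox7a1 (0.58) and Chchd10 (0.57) were closest to Myh6. With Spearman's rho, 2 of the 5 genes were kept for each transgenic list and 3 of 5 for the control list, and away from the tissue edge 2 of 5 for the control list.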

How the data were processed

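For each section the authors deposited a matrix of raw UMI counts, with genes as rows and spots over tissue as columns. Per the file headers they were made with Space Ranger 2.0.0, and the submitters' processing notes name GRCm39 as genome build. The probe set is not given in the sources used here. The authors also deposited Moran's I, a spatial autocorrelation score, which was taken without change. No further filter on spots was applied to section sums, and the authors' Wilcoxon test over spots was not repeated, since spots of 1 section are not replicates.

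UMIs were summed per section and divided by the section total to give CPM. A count of 0 was set to 3 counts, and a gene was counted as called at a 2-fold difference with at least 20 UMIs over both sections. That floor equals 0.209 CPM for the control and 0.232 CPM for the transgenic section. The intervals were tested on simulated Poisson counts. These had no added spread between spots, sections or animals, so that test speaks to counting error only. The members, gene lists, motifs and rules were chosen with earlier results of these data known. Besides the 8 members, Top2b and Smyd1, the text names the highest and lowest gene of each list, the 5 genes with the highest Pearson's r to Myh7 or Myh6 among genes with at least 1000 UMIs, and markers. Nppa, Thra, the highest skeletal muscle marker and the 2 lower ones were named after their values were seen. Scaling by TMM (edgeR 4.0.16) or by size factors (DESeq2 1.42.0, R 4.3.3) was tried, as were other totals, subsets of spots, other groupings, thinning to 8134 UMIs and Spearman's rho. Sums and intervals were computed in Python 3.11.15 with pandas 2.3.3, numpy 2.4.6 and scipy 1.17.1. Promoter and microRNA sequences are from RefSeq, GRCm38.p6, matched by symbol for all 8 genes, and no coordinate was moved between builds.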

Additional observations from a re-analysis of the deposited data

How the results depend on the processing

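No paired analysis was possible because there was 1 section per genotype and no replicate to leave out, so nothing here speaks to differences between animals. In all 10 alternatives the 3 members at least 2-fold higher and the 1 lower were the same genes, and the direction of none of the 7 members with at least 20 UMIs reversed. The log2 ratio of Myh6 was −1.84 with edgeR TMM factors, −1.84 with DESeq2 size factors, −1.77 with totals without the 50 most abundant genes, −1.67 in spots away from the tissue edge, −1.48 in the 50% of spots richest in cardiomyocyte markers, −1.71 in the 50% poorest in erythroid markers (chosen after seeing the data) and −1.71 as a mean over spots. That of Myh7 was 7.71 with TMM, 7.72 with DESeq2, 8.20 in the spots richest in cardiomyocyte markers and 7.63 in those poorest in erythroid markers. TMM and DESeq2 moved the median of all genes by −0.16 and −0.15, and Myh9 by as much, to a lowest value of 0.16. With 1 CPM added the Myh8 log2 ratio was 4.49, and over all 10 alternatives it ran to 6.69. The control Myh7 share was 0.151% in the spots richest in cardiomyocyte markers, 0.209% in those poorest in erythroid markers and 0 as a median over spots. The transgenic share was 56.3% away from the edge, 55.3% and 57.5% in the same 2 subsets. The number of other members that differed between the end groups of spots by Myh7 share was 2 (Myh7b and Myh8) with 4 groups and 0 in the spots poorest in erythroid markers, against 1 as reported. Away from the edge the 1 member was Myh8 and not Myh7b. The share of all genes that differed between the end groups was not computed in any of these settings. At least 2-fold higher genes numbered 2091 as reported, 2511 with no minimum beyond 1 UMI and 1187 with a minimum of 200 UMIs. Lower genes numbered 855, 1534 and 510 in the same order. The number of genes compared changes with the minimum, so these counts do not show whether the shares changed. The causes were not tested. Depth limited Myh3, whose counts could not show a difference.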

Other observations

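The skeletal muscle chain genes outside the 8 members stayed near 0 in both sections: Myh1 had 6 UMIs in each, Myh2 had 4 in the control and 2 in the transgenic section, and Myh4 had 3 and 2. Other thick filament genes of skeletal muscle did not all follow them. Mybpc2 went from 212 UMIs to 2939, and Myom3, a myomesin, from 12 to 85 UMIs (log2 ratio 2.97, 2.10 to 3.98), while Mybpc1 had 8 and 7 UMIs.

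Hsp90aa1, the chaperone that folds the myosin head together with Unc45b, was at 107 CPM (control) and 323 CPM (transgenic) (log2 ratio 1.60, 1.51 to 1.68), and Unc45b 297 and 187 CPM (−0.66, −0.74 to −0.59). Sox6, a repressor of slow myosin genes in skeletal muscle, had 12.9 and 5.64 CPM (−1.19, −1.60 to −0.79). Tead1, which binds MCAT elements, had 107 and 174 CPM (0.69, 0.60 to 0.79). These genes were picked from the lists after their values were seen.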
